A study of Mus musculus with 6 samples.

Results

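The cytosolic HSP70 and HSP110 chaperones were followed as 8 genes: Hspa1a, Hspa1b, Hspa2, Hspa4, Hspa4l, Hspa8, Hspa14 and Hsph1. They were taken by symbol from a table of 52636 gene IDs, in which each symbol had 1 row. The family was selected on measured values, namely the lower CPM of Hsph1, Hspa1a and Hspa1b with ibuprofen in these same libraries. The comparison of the 8 genes between groups is therefore a description. No p-value is printed for them, and whether the fit called them is given only as part of that description.

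The libraries came from cells sorted for high EpCAM, an epithelial surface protein, out of the thoracic oesophagus of K5:Smo mice, whose genotype is Krt5-CreERT2:R26SmoM2/EYFP. In this model a tamoxifen-activated Cre under the keratin 5 promoter, active in basal epithelial cells, switches on SmoM2, a constantly active Smoothened, with a yellow fluorescent reporter. All 6 libraries, untreated ones included, carry this genotype and were taken 12 weeks after tamoxifen, so no group without active Smoothened is compared here. There were 3 untreated libraries and 3 from mice given ibuprofen, a cyclooxygenase inhibitor, at 0.6 g per litre of drinking water. The labels give no age and do not say whether each library is 1 mouse, so the errors measure only the spread between these libraries. A code in the library names differs between the groups, its meaning is not given, and whatever it marks cannot be told apart from the treatment.

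HSP70 proteins bind exposed hydrophobic stretches of unfolded polypeptides and release them in a cycle driven by ATP. J-domain proteins start the cycle by stimulating ATP hydrolysis, and the HSP110 proteins, which are large relatives of HSP70, end it as nucleotide exchange factors. Under protein stress the transcription factor HSF1 binds heat-shock elements, arrays of inverted GAA units, and raises the inducible members, while Hspa8 is made constantly in most cells.

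The promoter sequences are shown because the 3 genes for which the family was chosen also carried a heat-shock element motif in the window examined. The search covered 250 bases before to 50 bases after each RefSeq start (GRCm38.p6) for GAANNTTC and TTCNNGAA, both of which read the same on either strand. Of the 7 members with an entry in the promoter table, Hspa1a, Hspa1b and Hsph1 had a match, and Hspa2, Hspa4, Hspa4l and Hspa14 had none. Hspa8, the main constitutive member, had no entry, so its promoter was not examined. Among all 32851 windows of this length 15.1% had a match. The Hspa1a match starts 104 bases before the start of the gene, within chr17:34972243-34972320 on the minus strand, and the same 78 bases stand before Hspa1b at chr17:34959325-34959402 on the minus strand. The Hsph1 match shown starts 33 bases before the first of its 2 RefSeq starts, within chr5:149636352-149636429 on the minus strand. Capitals mark the GAA and TTC units.
Hspa1a: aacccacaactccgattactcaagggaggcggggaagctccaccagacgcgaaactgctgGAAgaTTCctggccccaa
Hsph1: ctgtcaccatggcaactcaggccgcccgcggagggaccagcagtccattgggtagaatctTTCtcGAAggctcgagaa
Hsph1 also had a run of 3 alternating GAA and TTC units, each 2 bases apart, which counts as 2 overlapping matches of the shorter motifs. It lies 37 to 49 bases after that start, at chr5:149636288-149636300.
Hsph1, 3 units: TTCtgGAAagTTC
Runs of 3 units were found in 0.603% of all windows and in no other member with an entry. A match is a stretch of letters, and binding was not measured.

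Hspa1a and Hspa1b, the stress-inducible HSP70 genes, lie next to each other on chromosome 17 (34969190 to 34972156 and 34956436 to 34959238, GRCm38, GENCODE M21, minus strand), each with 1 exon. Their coding sequences differed at 8 aligned bases and 3 gap positions, an identity of 99.4%, and their windows from 250 bases upstream to the start differed at 3 bases. Of the 50-base windows of the Hspa1a transcript, 58.8% occurred also in Hspa1b. How reads that match both were assigned is not given in the sources used here, so the split between the genes is uncertain and their sum is given beside them.

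In untreated replicates 1, 2 and 3 Hspa1a had 238, 199.8 and 170.2 CPM, read counts scaled to a common library total, and in ibuprofen replicates 1, 2 and 3 it had 76.9, 100.2 and 48.4. The groups did not overlap, and within the ibuprofen group the highest library was about double the lowest in level. Hspa1b had 408, 359 and 302 CPM without and 139, 173 and 92.5 CPM with the drug, again without overlap and with the libraries in the same order. The means fell from 203 ± 34.2 to 75.2 ± 26 CPM for Hspa1a and from 356 ± 52.8 to 135 ± 40.4 CPM for Hspa1b (SD, n = 3). On the log2(CPM + 1) scale these are changes of -1.47 ± 0.22 and -1.43 ± 0.20 (ibuprofen minus untreated, standard error, SE). Summed, the genes had 559 ± 86.8 CPM untreated and 210.0 ± 66.3 CPM with ibuprofen, a 2.66-fold difference. The ratio of Hspa1a to Hspa1b was 0.557 to 0.584 untreated and 0.523 to 0.58 with ibuprofen, so the share of each in the sum was alike in all libraries.

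Gm20481, an annotated gene model on the opposite strand, lies wholly within Hspa1a (chromosome 17, 34969912 to 34972136), and all 564 of its exon bases overlap the Hspa1a exon. Its CPM followed Hspa1a, at 113, 94.7 and 87.8 untreated and 41.4, 51.9 and 24.9 with ibuprofen, or 0.474 to 0.539 of the Hspa1a value in each library. Whether counting used strand is not given, so its reads and those of Hspa1a cannot be told apart. With Hspa1a, Hspa1b and Gm20481 summed as 1 gene the log2 change was -1.44 ± 0.21.

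Hsph1, the inducible HSP110 (chromosome 5, 149614287 to 149636376, minus strand), is an exchange factor of the stress response. Untreated replicates 1, 2 and 3 had 101, 97.2 and 95.3 CPM of it, and the ibuprofen replicates in the same order had 38.1, 42.7 and 36.1. The spread within each group was small beside the gap between them, and the level with ibuprofen was 39.8% of the untreated one. The log2 change was -1.31 ± 0.11. No 50-base window of the Hsph1 transcript occurred in another gene's transcript.

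**Figure D1:**
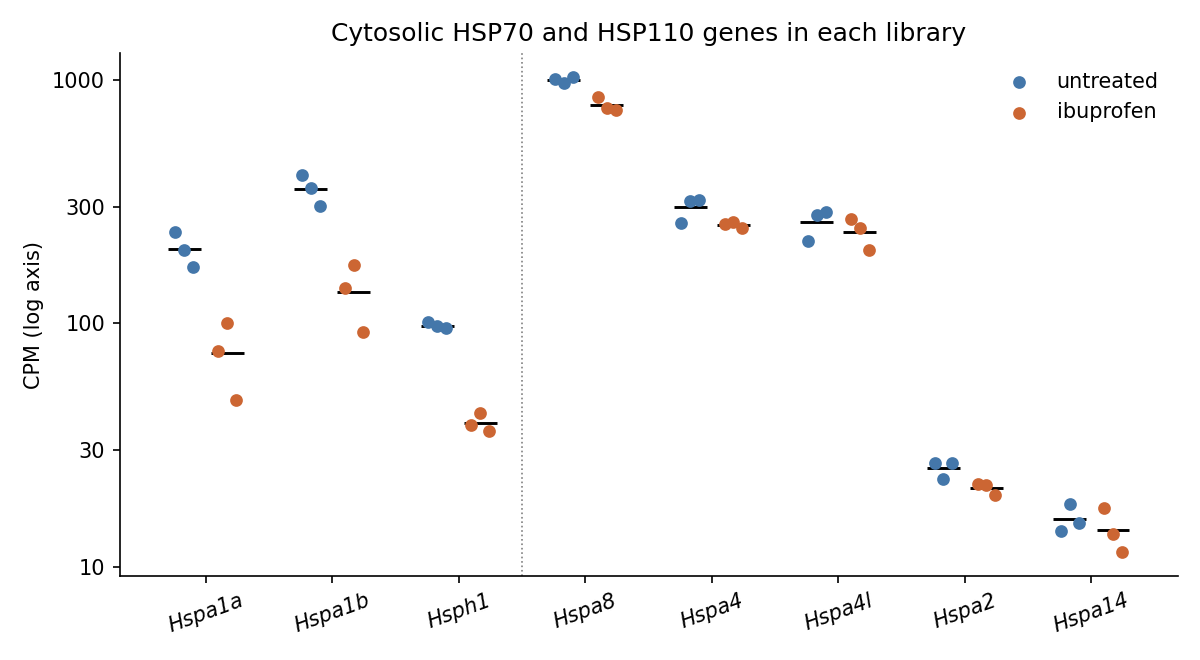
CPM (log axis) of each gene in the 3 untreated and 3 ibuprofen libraries, 1 point per library in replicate order, with black bars at the group means and a dotted line between the 3 inducible genes and the other 5. Hspa1a, Hspa1b and Hsph1 show a wide gap between groups, Hspa8 and Hspa2 a narrow one, and Hspa4, Hspa4l and Hspa14 overlap.

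Hspa8, the constitutive HSP70 known as HSC70 (chromosome 9, 40800984 to 40810087), was the most abundant member. It had 1011, 972 and 1031 CPM in untreated libraries and 852, 769 and 754 in ibuprofen ones. The groups did not overlap, with a level of 78.8% of untreated and a log2 change of -0.35 ± 0.10. Of the 50-base windows of its transcript, 74.8% occurred in transcripts of other genes, 13 in all and mostly gene models such as Gm15459, so its CPM depends on how shared reads were treated. The small nucleolar RNA genes Snord14c, Snord14d and Snord14e lie within Hspa8 on the same strand.

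Hspa4 and Hspa4l are the other HSP110 genes. Hspa4 (chromosome 11, 53259814 to 53300457) had 258, 319 and 321 CPM in untreated libraries and 255, 260.3 and 247 in ibuprofen ones, where untreated replicate 1 fell among the ibuprofen libraries. Hspa4l (chromosome 3, 40744495 to 40796103) had 218, 278 and 288 CPM in untreated libraries and 268, 246 and 200.7 in ibuprofen ones, and the groups overlapped. Their log2 changes were -0.23 ± 0.11 and -0.13 ± 0.14.

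Hspa2, an HSP70 known for its part in male germ cells (chromosome 12, 76404176 to 76406938), had 26.6, 23 and 26.6 CPM in untreated libraries and 21.9, 21.6 and 19.6 in ibuprofen ones, a log2 change of -0.26 ± 0.13. Hspa14, which works with a J-domain partner on ribosomes (chromosome 2, 3488850 to 3512814), had 14, 18.1 and 15.1 CPM in untreated libraries and 17.4, 13.6 and 11.4 in ibuprofen ones, a log2 change of -0.15 ± 0.18. Hspa14 had the fewest reads, an estimated 89 to 158 per library, against 311 to 850 for Hsph1 and 5928 to 8862 for Hspa8. Its exons share 321 bases with the gene model Gm45902 on the same strand, so reads there are uncertain.

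All 8 genes passed the filter on low values, which asked for 3 or more libraries with 1 CPM or above. The fit by limma over 16684 tested genes called 3 of the 8 lower at a Benjamini-Hochberg adjusted p under 0.05, namely Hspa1a, Hspa1b and Hsph1. It called 37 tested genes lower and 50 higher, 0.222% of all of them lower and 0.521% in either direction, and nothing is read from this contrast because it chose the family. Of the other 5 members limma called 0, and 1 of them, Hspa8, had an unadjusted p under 0.05. Over all tested genes 6.17% were lower and 11.8% higher at that unadjusted threshold, so 1 of 5 is no result about the members. In 5 of the 8 the ibuprofen libraries all lay below the untreated ones, as in 8.73% of all tested genes, and without the 3 genes that chose the family this held in 2 of 5. The 8 log2 changes were all negative with a median of -0.30, against a median of 0.04 over all tested genes, of which 7284 were negative. The 3 chosen genes had a median of -1.43 and the other 5 one of -0.23. In these bulk samples fewer cells with a transcript and less of it per cell cannot be told apart.

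Over the 17 alternatives run on Hsph1 its log2 change was -1.39 to -1.23, a description of how the value depends on the settings and no support for the change. Hspa1a and Hspa1b lost their calls without untreated replicate 1 (log2 changes of -1.34 and -1.33) and without untreated replicate 2 (-1.47 and -1.42), when 4 and 5 genes were called in all. Hspa1a lost its call also with robust shrinkage. Hspa1a and Hspa1b have the highest transcript GC content of the family, 58.9% and 58.1%, against 39.5% in Hspa4l and 45.9% to 53.6% in the others. After correction of each library for GC content the log2 changes were -1.38 ± 0.22 for Hspa1a, -1.35 ± 0.20 for Hspa1b, -1.39 ± 0.10 for Hsph1 and -0.45 ± 0.09 for Hspa8. Hspa4l moved furthest under this correction, to -0.33 ± 0.10.

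**Figure D2:**
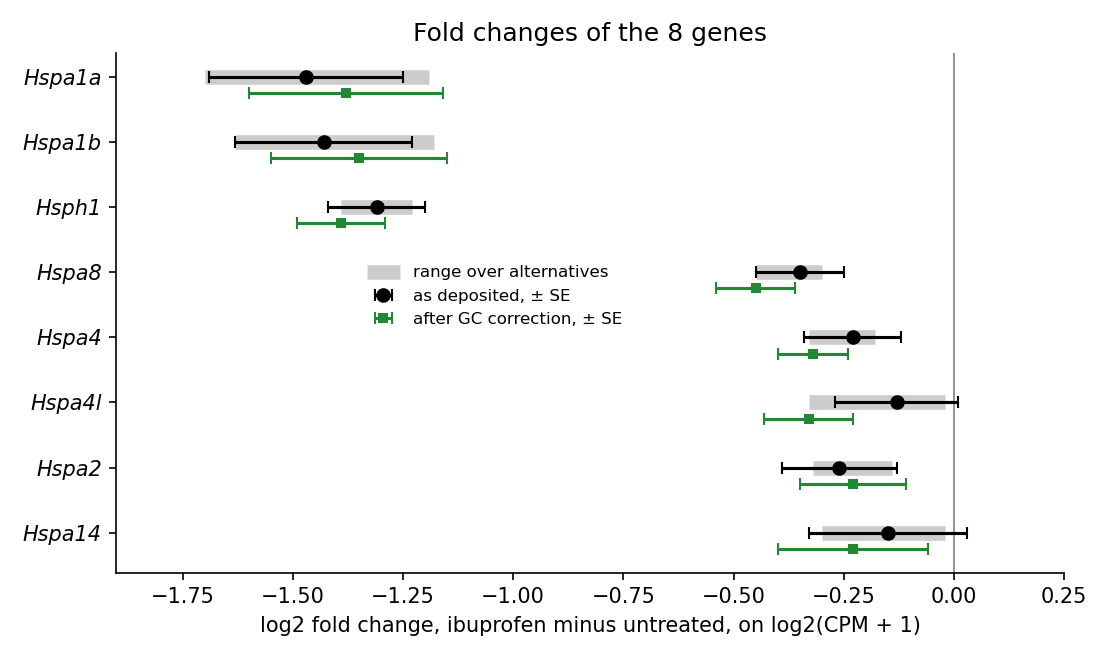
Log2 fold change of each gene (ibuprofen minus untreated, on log2(CPM + 1)), as deposited (black, ± SE) and after GC correction (green, ± SE), with a grey band for the range over the alternatives. The inducible genes lie at -1.47 to -1.31 and the other 5 at -0.35 to -0.13, and no band crosses 0.

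Ratios within a library do not depend on how that library was scaled, but these were taken without GC correction and can still depend on GC content. The sum of Hspa1a and Hspa1b was 0.639, 0.574 and 0.458 of Hspa8 in untreated replicates 1, 2 and 3, and 0.254, 0.355 and 0.187 of it in ibuprofen replicates 1, 2 and 3. The inducible HSP70 pair was thus lower relative to the constitutive HSP70 in each ibuprofen library than in any untreated one, with means of 0.557 ± 0.0916 and 0.265 ± 0.0847 (SD, n = 3). Hsph1 was 0.391, 0.305 and 0.297 of Hspa4 untreated and 0.149, 0.164 and 0.146 of it with ibuprofen. Untreated replicate 1 stood highest in both ratios. No test is given for either ratio, since the choice of genes fixed their direction.

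**Figure D3:**
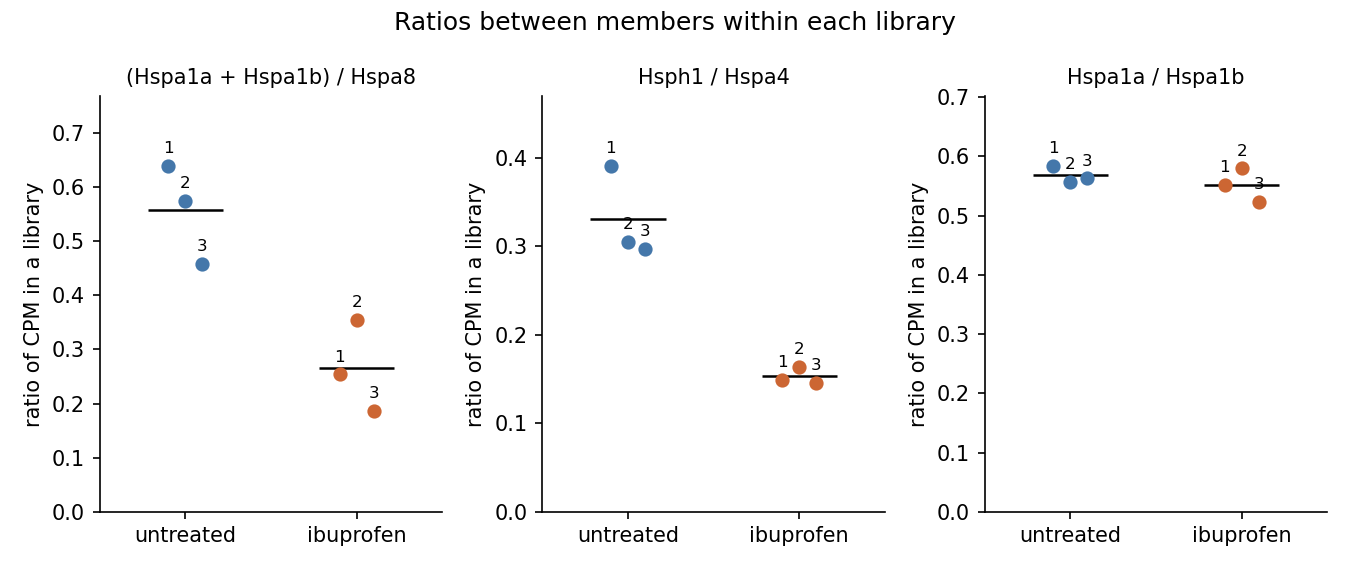
Ratio of CPM within each library for the inducible pair over Hspa8, for Hsph1 over Hspa4 and for Hspa1a over Hspa1b, with 1 point per library labelled by replicate number and bars at the group means. The first pair of ratios is lower in every ibuprofen library, and the ratio of Hspa1a to Hspa1b stays between 0.523 and 0.584.

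The summed level of the 8 genes was 2264 ± 12.9 CPM untreated and 1568 ± 139.0 CPM with ibuprofen. Hspa1a and Hspa1b held 24.7% ± 3.7 of that sum untreated and 13.2% ± 3.41 with ibuprofen, while Hspa8 held 44.4% ± 1.47 and 50.6% ± 3.12 (SD, n = 3).

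Levels can be set against each other per length, here as CPM per kilobase of merged annotated exon. Untreated, the order was Hspa8 (234 ± 6.98), Hspa1b (127 ± 18.8), Hspa1a (68.3 ± 11.5), Hspa4 (54.2 ± 6.45), Hspa4l (22.2 ± 3.23), Hsph1 (13.5 ± 0.399), Hspa2 (9.6 ± 0.785) and Hspa14 (3.88 ± 0.521). Among neighbours in this order only the ranges of Hspa1a and Hspa4 overlapped. With ibuprofen the level per kilobase was 184 ± 12.3 for Hspa8, and Hspa1b (48.1 ± 14.4) overlapped Hspa4 (46 ± 1.2). Hspa1a (25.3 ± 8.75) then overlapped Hspa4l (20.2 ± 2.9) and lay below Hspa4 in each library. Hsph1 (5.36 ± 0.469) was below Hspa2 (7.96 ± 0.469) and above Hspa14 (3.49 ± 0.741), without overlap. The order depends on the annotation, since Hsph1 has 11 annotated transcripts and 7266 bases of merged exon while its longest coding transcript has 3802.

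Genes that act with HSP70 or share HSF1 control were described from lists chosen with earlier results of these data known. The list of the HSF1 axis and heat-shock genes had 23 tested members of 24, of which 2 fell, 0 rose and 21 did not pass, by limma against 0.222% of all tested genes called lower. At an unadjusted p under 0.05 limma had 9 lower and 0 higher, against 6.17% and 11.8% of all tested genes. Fkbp4, an HSP90 co-chaperone, fell from 164 ± 28 to 82.6 ± 11.1 CPM (-0.97 ± 0.14, limma adjusted p = 0.0221). Stip1, which bridges HSP70 and HSP90, fell from 119 ± 8.12 to 75.1 ± 5.18 CPM (-0.66 ± 0.11, limma adjusted p = 0.0269). Their ibuprofen libraries all lay below the untreated ones. The mitochondrial chaperonin gene Hspd1 and the HSP90 activator gene Ahsa1 had -0.38 ± 0.09 and -0.49 ± 0.13 without passing. Hsf1 itself averaged 50 ± 6.97 CPM in untreated and 43.3 ± 4.73 CPM in ibuprofen libraries, a log2 change of -0.20 ± 0.13 and overlapping groups. The list's median was -0.21. Fkbp4, Stip1, Hspd1 and Ahsa1 are named for having the smallest p in it. Of the 23 changes 20 were negative, where 7284 of all 16684 tested genes were. Hsf2 (0.16 ± 0.13), Bag3 (0.06 ± 0.10) and Ubb (0.12 ± 0.12) were positive, and Hspe1, the partner of Hspd1, had -0.09 ± 0.11. The groups overlapped in each of these. Fkbp4 lost its call without untreated replicate 1 (-0.85) or 2 (-0.98), and Stip1 lost its call with any single library left out except untreated replicate 3.

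Among 22 co-chaperones and exchange factors of HSP70, 6 are also in the preceding list. Only Stip1 of the 22 fell by limma and 0 rose, against 0.222% of all tested genes called lower. At an unadjusted p under 0.05 limma had 6 lower and 3 higher, against 6.17% and 11.8% of all tested genes. The median was -0.03. The J-domain genes Dnajb5 and Dnajb2 had 0.57 ± 0.19 and -0.57 ± 0.19, and St13, a cofactor that holds HSP70 in its ADP state, had -0.28 ± 0.10, all without passing. Of the 7 HSP70 relatives outside the cytosolic set 6 were tested, and the chaperones of the endoplasmic reticulum Hyou1 (142 ± 28.6 to 63.4 ± 4.94 CPM, -1.13 ± 0.14, limma adjusted p = 0.0171) and Hspa5 (1028 ± 47 to 598 ± 83.8 CPM, -0.79 ± 0.12, limma adjusted p = 0.0228) fell. These were 2 of 6, where limma called 0.222% of all tested genes lower. At an unadjusted p under 0.05 the list had the same 2 lower and 0 higher by limma, against 6.17% and 11.8%. The mitochondrial HSP70 gene Hspa9 (-0.16 ± 0.09) and Hspa13 (-0.19 ± 0.12) did not pass, and the list's median was -0.22. Without untreated replicate 1 or 2 Hyou1 and Hspa5 were not called, and Hspa5 was also not called without ibuprofen replicate 1 or 3.

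**Figure D4:**
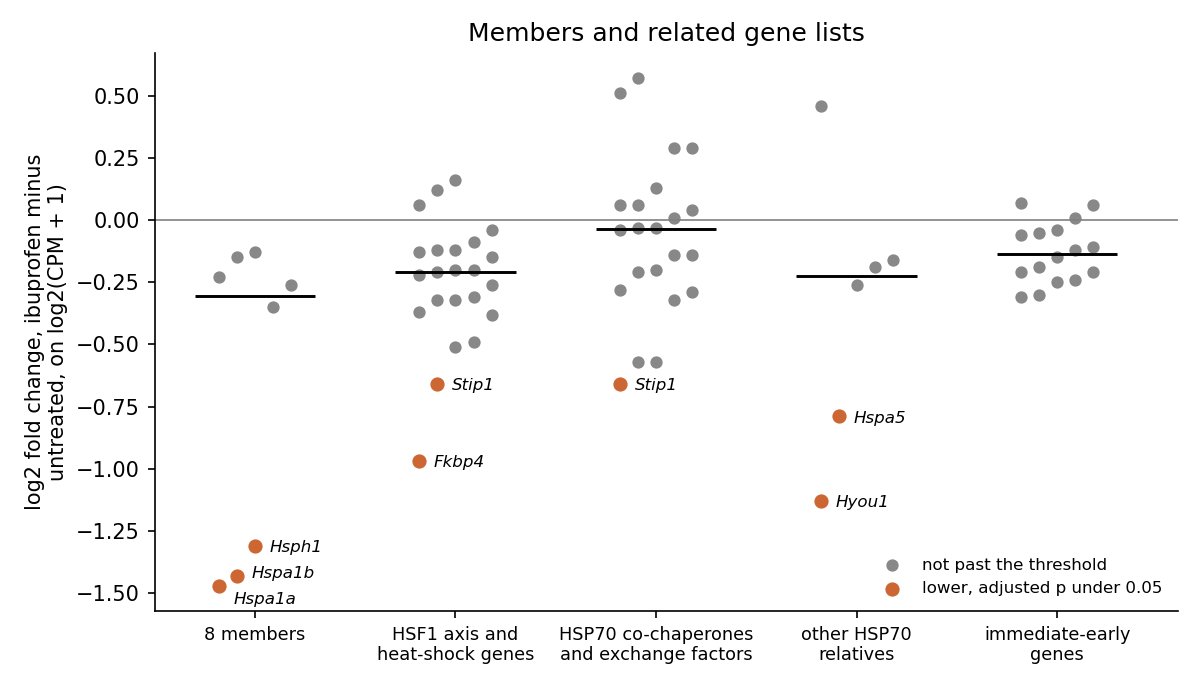
Log2 fold change (ibuprofen minus untreated, on log2(CPM + 1)) of each tested gene of the family and of 4 related lists, 1 point per gene, with bars at the list medians and named genes where the adjusted p was under 0.05. The medians are -0.30 for the 8 members, -0.21, -0.03 and -0.22 for the heat-shock, co-chaperone and relatives lists and -0.13 for immediate-early genes.

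The genes whose pattern over the 6 libraries was most like that of Hsph1 were Pacsin2, Lrrc42, Exd2, Dnaja3, Foxj2 and Mapk14. They came from 8787 tested genes with a mean of at least 10 CPM, leaving out members and predicted or clone-named genes. Their Pearson correlations with Hsph1 on the log2 scale were 0.990 to 0.993, given as a description over libraries from 2 groups. Correlation does not compare sizes, and their log2 changes were -0.60 to -0.20, against -1.31 for Hsph1. Of these, Dnaja3, a J-domain gene of mitochondria, had 46.3 ± 2 CPM untreated and 30.3 ± 1.71 CPM with ibuprofen (SD, n = 3), with no test given since likeness to Hsph1 chose it. Within the family the correlation with Hsph1 was 0.95 for Hspa1a, 0.96 for Hspa1b, 0.94 for Hspa8, 0.86 for Hspa2, 0.72 for Hspa4, 0.38 for Hspa14 and 0.36 for Hspa4l.

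Other measures were read in the same libraries. Immediate-early genes, which respond rapidly to many stimuli, summed to 17067 to 17993 CPM untreated and 14829 to 17071 CPM with ibuprofen, led by Egr1 (2567 ± 354 and 2476 ± 226 CPM) and Fosb. Their median was -0.13 with 0 of 16 called by limma and 2 lower and 0 higher at an unadjusted p under 0.05. Epithelial markers led by Krt5 and Krt13 summed to 11265 to 12631 CPM untreated and 9072 to 10339 CPM with ibuprofen, with 0 of 9 called by limma and 3 lower and 0 higher at an unadjusted p under 0.05. Those 3 were Krt15 (-0.64 ± 0.13), Krt14 (-0.54 ± 0.16) and Krt5 (-0.32 ± 0.14), and the other epithelial markers had -0.31 to 0.10. For both lists the shares over all tested genes were 6.17% lower and 11.8% higher. Fibroblast markers, led by Fbln1 and Dcn, summed to 332 to 372 CPM untreated and to 539, 356 and 343 CPM in the ibuprofen libraries, the highest being replicate 1. Fbln1 made up most of each sum, at 258 to 393 CPM. The collagen genes Col1a1, Col1a2 and Col3a1 had 29, 15.7 and 32.2 CPM in ibuprofen replicate 1. They had 0.799 to 5.996 CPM in the other libraries. Without ibuprofen replicate 1 the log2 changes were -1.51 for Hspa1a and -1.30 for Hsph1. Leukocyte markers led by Cd68 and Kit summed to 15.3 to 18 and 18.5 to 34.1 CPM, endothelial ones led by Pecam1 and Cdh5 to 12.6 to 13.5 and 13.4 to 17.6 CPM, muscle ones led by Tagln and Acta2 to 9.44 to 15 and 8.6 to 10.7 CPM, and erythroid ones led by Alas2 and Hbb-bs to 0.7 to 1.9 and 1.35 to 2.3 CPM. Pecam1 made up most of the endothelial sum (11.5 ± 1.02 and 14.4 ± 1.98 CPM). Cdh5, Kdr, Tek and Emcn averaged 0.117 to 0.933 CPM untreated and 0.05 to 0.217 CPM with ibuprofen, each lower with ibuprofen. They did not pass the filter on low values. In these libraries 3 reads equal 0.342 to 0.472 CPM, so nothing is read from that direction. Cd68 had 4.45, 4.35 and 6.8 CPM in untreated libraries and 9.44, 8.2 and 8.14 in ibuprofen ones, without overlap (0.65 ± 0.20). Of 3 tested leukocyte markers limma had 1 higher (Cd68) and 0 lower at an unadjusted p under 0.05. The highest leukocyte sum was in ibuprofen replicate 3, where Kit had 16.5 CPM against 3.4 to 4.45 CPM in the other libraries, and this library also had the lowest Hspa1a and Hspa1b. Without it the log2 changes were -1.19 for Hspa1a, -1.18 for Hspa1b and -1.26 for Hsph1. The defining leukocyte gene Ptprc averaged 0.15 and 0.1 CPM. The part of these measures in the chaperone values was not tested. Estimated reads assigned to genes were 6361297 to 8764369 per library, fewest in untreated replicate 1.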

How the data were processed

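The deposited values are CPM per gene and library, as named in the file headers. Tools listed without their roles, per the submitters' processing notes, were Cell Ranger 3.1.0, edgeR, STAR 2.5.3a and HTSeq, and the builds were mm10 and GRCm38. The values lie on a common grid that reads scaled to a common total and rounded up would give. Reads per library were estimated from it, which returned at least 99.82% of the values. Simple multiples of 1 read were not found, so no count test was run.

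Genes reaching 1 CPM in 3 or more of the 6 libraries were tested with limma 3.58.1 (R 4.3.3) on log2(CPM + 1) without a block, the prior variance following the mean. Low genes' changes are understated. Members, lists and tests were chosen with earlier results of these data known. Every member was named. From each related list the called genes, the 4 with the smallest p and Hsf1 were named, and from the other lists the 2 most abundant. Further genes were named for their values in these libraries. The result of 1 marker list is not reported here. GENCODE M21 gave positions, GC content and lengths, and promoters came from RefSeq (GRCm38.p6). Coding sequences were aligned with Biopython 1.88, a comparison added after the files were seen, in place of one of proteins. GC correction took a loess curve (span 0.3) of each library's log2 deviations on GC content, and TMM was an unweighted trimmed mean. The procedure was tested on simulated data. Alternatives covered pseudocounts of 0.5 and 5, filters, scaling, weights, shrinkage, GC content, a block and each library left out. Alternatives for the related lists were added after seeing the data.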

Additional observations from a re-analysis of the deposited data

How the results depend on the processing

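No direction among the 8 members reversed under any alternative run, and the ratio of Hspa1a and Hspa1b to Hspa8 kept a log2 change of -1.34 to -0.88 with each library left out, against -1.11 with all. These runs reuse the libraries whose values chose Hspa1a, Hspa1b and Hsph1, so they are no support for the fall. Calls varied with the settings. Over all genes limma called 87, against 52 with no filter, 2462 with library weights, and 4 to 456 with 1 library left out. Library weights called 2462 of 16684 tested genes. In the lists they called 5 of 8 members, 8 of 23 HSF1 genes, 8 of 22 co-chaperones and 2 of 16 immediate-early genes. With the main settings 3, 2, 1 and 0 were called, against 87 over all genes. The counts in these lists rose along with the count over all genes, while the list of HSP70 relatives stayed at 2. GC correction called 111 of 16646 genes over all and 4 of the HSF1 list. With 1 library left out 1 to 3 members, 0 to 3 of the HSF1 list, 0 to 1 co-chaperones and 0 to 2 relatives were called. The causes were not tested. At 3 units instead of 2 the promoter motif was in 1 member instead of 3. TMM and median-of-ratios scaling moved the median of all genes by -0.051 and -0.046 log2 units.

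Replicate numbers are not said to pair libraries. Correlations of deviations between same-numbered libraries were 0.00, 0.08 and 0.15, and not every library correlated best with its own number. With the replicate block 434 of 16684 genes were called over all and still 3 members. The block with GC correction called 270 of 16646 genes over all, 4 members, 7 of the HSF1 list and 2 co-chaperones. The count test on whole reads was not run, because the steps of the values are not simple multiples of 1 read. The depth limits Hspa14 most.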
